A study of Mus musculus with 36 samples.

Results

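The 9 genes Cdh1, Epcam, Cldn3, Cldn4, Cldn7, Ocln, Grhl2, Esrp1 and Ovol1 were taken as a fixed list of epithelial junction proteins and epithelial regulators. All 9 were found by symbol among the 21650 genes of the deposited expression table, and the rule names genes without a threshold on any measured value, although the list was drawn up with earlier results of these data known. RNA from 36 mouse samples was sequenced, 3 in each of 12 groups. In 6 groups, lactating female mice received tumor cells through the teat canal of the third mammary gland shortly after weaning. 4T1 cells, which derive from BALB/c mice and carry firefly luciferase, were given to BALB/c mice. Py230 cells, which derive from tumors of MMTV-PyMT transgenic C57BL/6 mice, were given to C57BL/6 mice. The other 6 groups were glands of BALB/c or C57BL/6 mice inoculated with Matrigel, a gel that the tumor inocula also contained. Each of these 4 kinds of tissue was collected 1, 3 and 6 weeks after inoculation (w p.i.). Each model is 1 cell line in 1 strain, and more Py230 than 4T1 cells were inoculated per gland. The line, the strain of the host and the number of cells given therefore cannot be told apart in any tumor comparison. The dams had been mated at 8 weeks of age, and their age at collection is not given in the sources used here.

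E-cadherin (Cdh1) ties neighboring epithelial cells together in adherens junctions, whereas claudins and occludin seal the space between them in tight junctions. Grainyhead-like, OVO-like and epithelial splicing regulatory proteins maintain the epithelial program, and loss of junction genes is a familiar feature of the epithelial-mesenchymal transition (EMT). In the mammary gland these genes are expressed by the luminal cells that line ducts and alveoli, and by carcinomas that retain an epithelial state.

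On GRCm38 the adhesion genes are Cdh1 (chr8:106603351-106670246, plus strand) and Epcam (chr17:87635979-87651129, plus strand). The tight junction genes are Cldn3 (chr5:134986214-134987472, plus strand) and Cldn4 (chr5:134945119-134946934, minus strand), on the same chromosome, Cldn7 (chr11:69964779-69967885, plus strand) and Ocln (chr13:100496507-100552718, minus strand). The regulators are Grhl2 (chr15:37233036-37363569, plus strand), Esrp1 (chr4:11331933-11386783, minus strand) and Ovol1 (chr19:5549136-5560646, minus strand). Intervals are those of the whole protein-coding genes in GENCODE vM21.

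The deposited values are scores. Scores are standardized within a library to mean 0 and SD 1, so that a score says how many SDs a gene lies from the average gene of its library. Across 13567 genes averaging 100 normalized counts or more, 1 score unit corresponded to 2.78 log2 units of the authors' mean normalized count. This relation was measured between genes and was not applied to single differences. By the authors' mean normalized counts, Ovol1 (30.4) had far fewer reads behind it than the other members, which ran from 320 for Ocln to 4908 for Epcam. Counts per library were not used here, so the depth behind each score is unknown.

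The libraries were made from whole tissue, and in bulk RNA fewer epithelial cells and less RNA per epithelial cell cannot be told apart. The 4 luminal keratins Krt7, Krt8, Krt18 and Krt19 were high in every group, with a mean score per library of 1.28 to 1.92. In week 1 the 8 adipocyte markers had a mean score of 1.25 to 1.79 in 4T1 tumors, below the 1.85 to 2.05 of Py230 tumors and the 1.83 to 2.18 of the glands. In week 3 they had a mean score of 0.739 to 2.22 in 4T1 and of 0.453 to 2.06 in Py230 tumors, against 1.96 to 2.29 in the glands. In week 6 that mean was -0.238 to 0.0764 in 4T1 and -0.0470 to 1.11 in Py230 tumors, below all glands of that week (1.74 to 2.32). The 6 skeletal muscle markers ranged from -0.659 to 2.49 among the 18 tumor libraries. The 8 leukocyte markers separated the models in every week without overlap, with means of 0.861 to 1.05, 0.704 to 1.22 and 0.876 to 0.917 in 4T1 against 0.337 to 0.739, 0.427 to 0.590 and 0.564 to 0.683 in Py230 tumors in weeks 1, 3 and 6. Of these 8 genes, 5, 3 and 3 were called higher in 4T1 and none lower. Of all genes, 11.9% and 24.1% were called higher in weeks 3 and 6, and the share of week 1 is not given here. The part of these other tissues in the results was not tested.

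Promoters of Epcam, Cldn4, Cldn7 and Ocln are shown because these junction genes, which sit in the same tissue, took different courses over the weeks described below. RefSeq windows on GRCm38.p6, from 250 bases before to 50 bases after a transcription start, covered 5 members (Epcam, Cldn3, Cldn4, Cldn7 and Ocln) with 7 windows. The E-box CAGGTG, a sequence recognized by Snail and Zeb repressors, was searched on both strands, where it reads CACCTG on the opposite one. It occurred in 6 of the 7 windows and in 20.2% of the 32851 windows of all genes. The 2 Ocln windows overlap, and the only E-box of the second is a site already counted in the first. Of the 2 Cldn7 windows, the one at the gene start given above holds no E-box, and the one printed lies at a start further into the gene. The Grainyhead core ACCGGT, which reads the same on both strands, occurred in 1 of the 7 windows and in 2.33% of all windows. A match describes the letters only. Capitals mark both motifs in the 4 windows printed here.
Epcam (chr17:87635729-87636028, plus strand, 2 E-boxes and 2 Grainyhead cores): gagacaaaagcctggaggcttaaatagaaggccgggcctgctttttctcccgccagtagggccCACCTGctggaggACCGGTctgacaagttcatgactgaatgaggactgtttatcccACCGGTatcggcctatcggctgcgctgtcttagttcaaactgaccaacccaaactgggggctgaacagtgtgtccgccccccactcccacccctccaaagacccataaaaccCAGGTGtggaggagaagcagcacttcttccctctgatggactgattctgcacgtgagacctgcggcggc
Cldn4 (chr5:134946885-134947184, minus strand, 2 E-boxes): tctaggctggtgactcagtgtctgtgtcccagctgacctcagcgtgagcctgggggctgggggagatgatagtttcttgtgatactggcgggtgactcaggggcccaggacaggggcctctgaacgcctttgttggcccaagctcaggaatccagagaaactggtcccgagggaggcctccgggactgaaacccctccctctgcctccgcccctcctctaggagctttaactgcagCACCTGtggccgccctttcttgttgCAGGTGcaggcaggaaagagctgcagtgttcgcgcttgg
Cldn7 (chr11:69965171-69965470, plus strand, 2 E-boxes): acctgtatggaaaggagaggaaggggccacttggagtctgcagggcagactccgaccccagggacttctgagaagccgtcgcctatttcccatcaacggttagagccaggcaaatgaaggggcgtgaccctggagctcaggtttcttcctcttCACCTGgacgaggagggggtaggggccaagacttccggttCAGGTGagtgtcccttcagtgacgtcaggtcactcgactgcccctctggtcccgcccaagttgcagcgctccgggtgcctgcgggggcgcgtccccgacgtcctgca
Ocln (chr13:100552449-100552748, minus strand, 2 E-boxes): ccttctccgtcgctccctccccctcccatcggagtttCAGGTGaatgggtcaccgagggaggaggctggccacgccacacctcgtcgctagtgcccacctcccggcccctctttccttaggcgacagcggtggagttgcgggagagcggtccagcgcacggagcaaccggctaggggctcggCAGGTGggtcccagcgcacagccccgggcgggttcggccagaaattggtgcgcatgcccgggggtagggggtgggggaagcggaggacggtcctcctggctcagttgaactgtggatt

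Over the 12 groups, the 4T1 tumors of 3 w p.i. had the lowest mean score for 8 of the 9 members. The exception was Cldn4, which was lowest in the 4T1 tumors of 1 w p.i. The highest mean fell in the Py230 tumors of 3 w p.i. for 5 members (Epcam, Cldn3, Cldn7, Grhl2 and Esrp1). It fell in the 4T1 tumors of 6 w p.i. for Cldn4 and Ocln, in the Py230 tumors of 6 w p.i. for Cdh1 and in those of 1 w p.i. for Ovol1. The distance between the highest and the lowest group was widest for Cldn4, from 0.650 ± 0.0689 to 1.47 ± 0.338 (SD, n = 3), and for Esrp1, from 0.799 ± 0.0860 to 1.56 ± 0.227. It was narrowest for Epcam, from 1.52 ± 0.125 to 1.79 ± 0.0573. Neighbors in the order of the 12 groups seldom differed beyond their spread. Of the 11 pairs of neighbors, 10 overlapped in their single libraries for Cldn4, Grhl2 and Esrp1, and all 11 overlapped for the other 6 members.

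**Figure D1:**
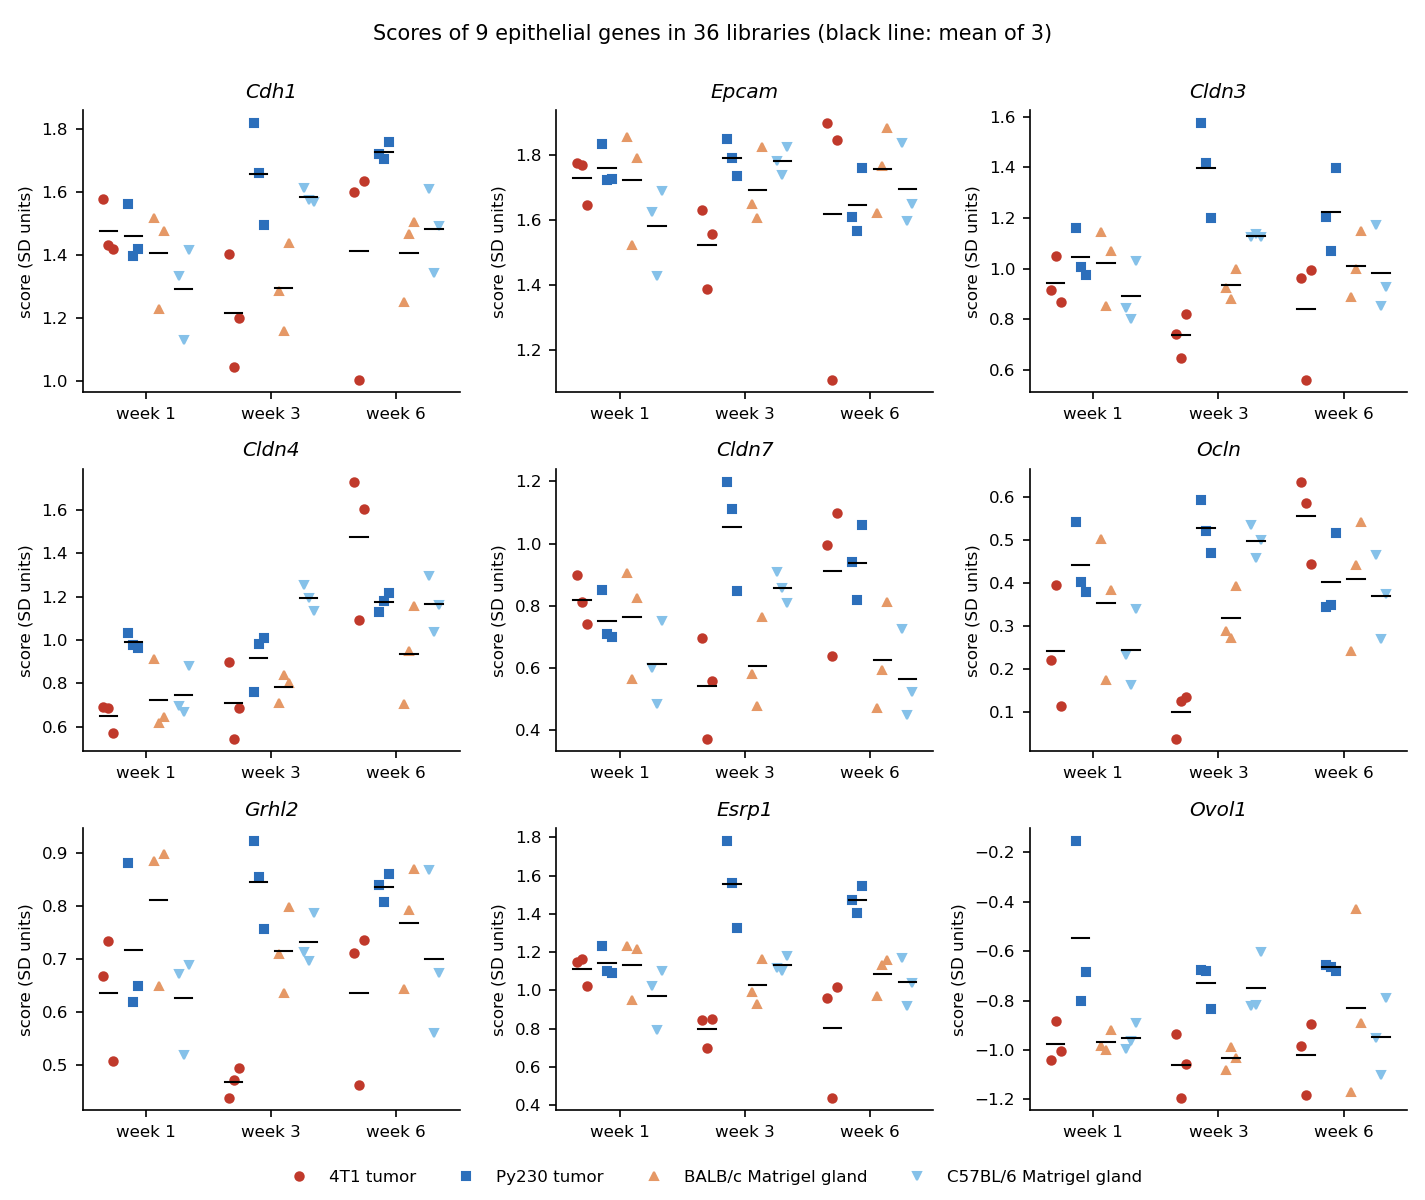
Score of each member (vertical axes, in SD units of the library) in the 36 libraries by week after inoculation, with 4T1 tumors as red circles, Py230 tumors as blue squares, BALB/c Matrigel glands as orange triangles and C57BL/6 Matrigel glands as light blue inverted triangles. Black lines are means of 3, the vertical axes do not start at 0, and 1 4T1 library of 6 w p.i. lies far below the other 2 for Cdh1, Epcam and Esrp1.

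Single libraries stood apart. In the 4T1 tumors of 6 w p.i., replicate 2 was the lowest of the 3 libraries for 8 of the 9 members. Its Epcam score was 1.11, against 1.90 and 1.85 in replicates 1 and 3. Its luminal keratin mean was also the lowest of that group, at 1.28 against 1.60 and 1.74. In the Py230 tumors of 3 w p.i., replicate 1 was the highest for 8 members, and its adipocyte mean was 0.453 against 1.80 and 2.06. In the Py230 tumors of 1 w p.i., replicate 1 was the highest for all 9 members. In 3 of the 6 gland groups a single library was the lowest for all 9 members. Keratinocyte markers stood out in 3 libraries of 6 w p.i., with a mean of 0.0145 in 4T1 replicate 3 (-1.17 and -1.41 in the others), 0.984 in BALB/c gland replicate 2 (-1.43 and -1.25) and 0.529 in C57BL/6 gland replicate 3 (-1.40 and -1.40). That BALB/c gland also held the highest Ovol1 score of its group (-0.430 against -1.17 and -0.891). The part of skin in the results was not tested. Results that rest on such a library are given with and without it.

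The first comparison asked whether 4T1 and Py230 tumors differed at 1 w p.i. Two-sided limma tests called Cldn4 and Ovol1 lower in 4T1, which is 2 of 9 members, while 8.43% of all genes were called lower. Cldn4, a claudin of tight junctions, scored 0.691, 0.688 and 0.570 in the 4T1 and 1.03, 0.976 and 0.961 in the Py230 tumors. These libraries did not overlap, and the difference was -0.34 (95% confidence interval -0.59 to -0.090, adjusted p = 0.0499). Ovol1, a zinc finger repressor of mesenchymal genes, scored -1.04, -0.882 and -1.0 in 4T1 and -0.153, -0.802 and -0.686 in Py230 tumors. Its difference was -0.43 (-0.71 to -0.15, adjusted p = 0.0290), and without Py230 replicate 1, the highest library, it was -0.23 (adjusted p = 0.248). The Cldn4 call was lost whichever of the 6 libraries was left out (adjusted p 0.0573 to 0.177), and the Ovol1 call also without 4T1 replicate 1 or 3 (adjusted p = 0.108 and 0.0992). The other 7 members had differences from -0.20 to 0.065, of which that of Ocln was called without 4T1 replicate 2 (-0.28, adjusted p = 0.0224). Fitted on these 6 libraries alone, Cldn4 was called (adjusted p = 0.0156) and Ovol1 was not (adjusted p = 0.143). The adipocyte means given above and the means of the 7 myoepithelial markers (1.20 to 1.47 in 4T1 and 1.54 to 1.64 in Py230 tumors) did not overlap in that week either, and their part in these calls was not tested.

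By 3 w p.i. the difference between the tumors was broad. 6 of the 9 members were called lower in 4T1 (Cdh1, Cldn3, Cldn7, Ocln, Grhl2 and Esrp1), while 18.5% of all genes were called lower, and no member was called higher. The median difference of the members was -0.43, against -0.011 over all genes. For 8 members every 4T1 library scored below every Py230 library, an arrangement that 18.7% of all genes also showed.

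Among the adhesion molecules at 3 w p.i., Cdh1 scored 1.40, 1.04 and 1.20 in 4T1 and 1.82, 1.66 and 1.5 in Py230 tumors. Its difference was -0.44 (-0.70 to -0.19, adjusted p = 0.00854). Epcam, the epithelial cell adhesion molecule, scored 1.63, 1.39 and 1.56 in 4T1 and 1.85, 1.79 and 1.73 in Py230 tumors. The Epcam libraries did not overlap, yet its difference of -0.27 (adjusted p = 0.125) did not pass the test.

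Among the tight junction genes at 3 w p.i., Cldn3 scored 0.741, 0.647 and 0.822 in 4T1 and 1.58, 1.42 and 1.20 in Py230 tumors, a difference of -0.66 (-0.89 to -0.43, adjusted p = 6.92e-05). Cldn7 scored 0.697, 0.373 and 0.557 in 4T1 and 1.20, 1.11 and 0.848 in Py230 tumors, a difference of -0.51 (-0.75 to -0.27, adjusted p = 0.00182). Ocln, which encodes occludin, scored 0.0386, 0.126 and 0.136 in 4T1 and 0.593, 0.523 and 0.469 in Py230 tumors, a difference of -0.43 (-0.60 to -0.26, adjusted p = 0.000319). All 3 genes were lower in each 4T1 library than in any Py230 library. Cldn4 was the exception among the claudins. Its libraries overlapped, with 0.900, 0.545 and 0.689 in 4T1 and 0.761, 0.980 and 1.01 in Py230 tumors, and its difference was -0.20 (adjusted p = 0.215).

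Among the regulators at 3 w p.i., Esrp1 showed the widest gap of all members. Esrp1, an RNA-binding protein that directs epithelial splicing, scored 0.847, 0.700 and 0.850 in 4T1 and 1.78, 1.56 and 1.33 in Py230 tumors, a difference of -0.76 (-1.0 to -0.52, adjusted p = 3.08e-05). Grhl2, a transcription factor that activates Cdh1 and claudin genes, scored 0.439, 0.472 and 0.496 in 4T1 and 0.923, 0.855 and 0.756 in Py230 tumors, a difference of -0.38 (-0.55 to -0.20, adjusted p = 0.00160). Neither gene overlapped between the models. Ovol1 had a difference of -0.33 (adjusted p = 0.0666). Leaving out any of the 6 libraries kept the calls of Cldn3, Cldn7, Ocln, Grhl2 and Esrp1, whereas the Cdh1 call was lost without 4T1 replicate 2 (adjusted p = 0.0559) or Py230 replicate 1 (adjusted p = 0.0702). Fitted on these 6 libraries alone, the Cdh1 and Cldn7 calls were lost (adjusted p = 0.112 and 0.0886).

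By 6 w p.i. the members no longer moved as a block. Cdh1, Cldn3, Esrp1 and Ovol1 were called lower in 4T1 tumors, 4 of 9 members, while 16.7% of all genes were called lower. None was called higher, against 24.1% of all genes. The median difference of the members was -0.20, against 0.036 over all genes.

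Esrp1 kept the widest gap at 6 w p.i., with 0.962, 0.440 and 1.02 in 4T1 and 1.47, 1.41 and 1.55 in Py230 tumors. Its difference was -0.67 (-0.91 to -0.43, adjusted p = 4.55e-05), and it stayed called without any 1 of the 6 libraries. Cldn3 scored 0.962, 0.562 and 0.996 in 4T1 and 1.20, 1.07 and 1.40 in Py230 tumors, a difference of -0.38 (-0.61 to -0.16, adjusted p = 0.00630). For Cdh1 the scores were 1.60, 1.01 and 1.63 in 4T1 and 1.72, 1.70 and 1.76 in Py230 tumors. For 5 members, these 3 with Grhl2 and Ovol1, every 4T1 library scored below every Py230 library, as did 23.2% of all genes. The Cdh1 difference was -0.32 (-0.57 to -0.059, adjusted p = 0.0445), and that of Ovol1 was -0.35 (-0.64 to -0.074, adjusted p = 0.0395). Without 4T1 replicate 2, the library that stood apart, Cdh1 (-0.11, adjusted p = 0.481), Cldn3 (-0.24, adjusted p = 0.0868) and Ovol1 (-0.27, adjusted p = 0.175) were no longer called. The Cdh1 and Ovol1 calls were also lost without any 1 of the 3 Py230 libraries (adjusted p 0.0749 to 0.107), that of Ovol1 without 4T1 replicate 1 (adjusted p = 0.0654), and that of Cldn3 without Py230 replicate 3 (adjusted p = 0.0556). Fitted on these 6 libraries alone, the Cdh1 and Cldn3 calls were lost (adjusted p = 0.177 and 0.0638).

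Cldn4 differed in sign at 6 w p.i. It scored 1.73, 1.09 and 1.60 in 4T1 and 1.13, 1.18 and 1.21 in Py230 tumors, so that 2 of the 3 4T1 libraries lay above all Py230 libraries. The difference of 0.30 (0.050 to 0.55) missed the threshold (adjusted p = 0.0501), and without 4T1 replicate 2 it was 0.49 (adjusted p = 0.000890). Ocln, with 0.636, 0.588 and 0.445 in 4T1 and 0.345, 0.350 and 0.516 in Py230 tumors, had a difference of 0.15 (adjusted p = 0.145). Epcam and Cldn7 had differences of -0.027 and -0.028. Grhl2 had one of -0.20 (adjusted p = 0.0631), which was called without 4T1 replicate 3 (-0.25, adjusted p = 0.0396).

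**Figure D2:**
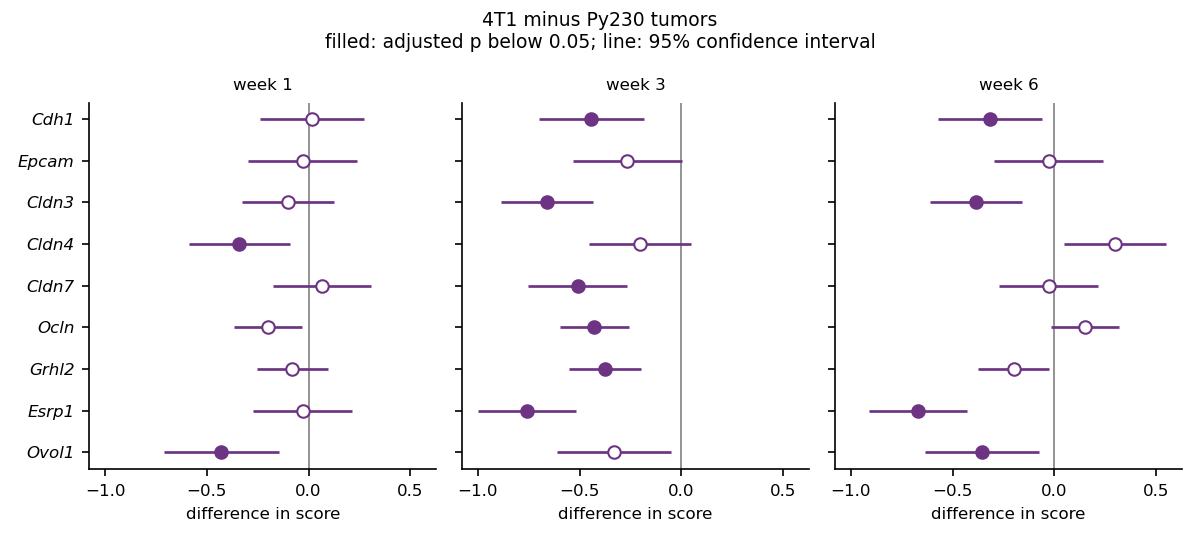
Difference in score between 4T1 and Py230 tumors (horizontal axis, below 0 means lower in 4T1) for each member in weeks 1, 3 and 6, with the 95% confidence interval as a line and filled circles for adjusted p below 0.05. In week 3 all 9 points lie left of 0, and at 6 w p.i. Cldn4 and Ocln lie right of it while Esrp1 stays at -0.67.

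Whether the tumors differed from gland without tumor cells was asked against the Matrigel glands of the same strain and week. For 4T1 tumors limma called no member at 1 or at 3 w p.i., when 16.6% and 3.25% of all genes were called, and 0 and 2 members had an unadjusted p under 0.05. All 9 differences of 3 w p.i. were negative, from -0.25 to -0.028. At 6 w p.i., when 38.6% of all genes were called higher and 21.5% lower, Cldn4 (0.54, 0.29 to 0.79, adjusted p = 0.000499) and Cldn7 (0.29, 0.044 to 0.53, adjusted p = 0.0388) were higher in the tumors. Esrp1 was lower (-0.28, -0.52 to -0.039, adjusted p = 0.0420). The BALB/c glands of that week scored 0.703, 0.949 and 1.15 for Cldn4, so that 1 tumor library lay within their range. The Cldn4 call held without any 1 of the 6 libraries, but fitted on these 6 alone Cldn4, Cldn7 and Esrp1 were all not called (adjusted p = 0.0629, 0.125 and 0.177). Without 4T1 replicate 2 the Esrp1 difference was -0.098 (adjusted p = 0.454), and its call was also lost without gland replicate 2 or 3 (adjusted p = 0.107 and 0.118). The Cldn7 call was lost without 4T1 replicate 1 or 3 or gland replicate 1 or 2 (adjusted p 0.0937 to 0.204). Without gland replicate 3 Ocln (0.21, adjusted p = 0.0417) and without gland replicate 1 Ovol1 (-0.36, adjusted p = 0.0280) were called.

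For Py230 tumors against C57BL/6 glands, limma called no member at 1 w p.i., when 0.00924% of all genes were called, although all 9 differences were positive (0.090 to 0.40) and 2 had an unadjusted p under 0.05. At 3 w p.i., when 12.8% of all genes were called higher, Esrp1 was higher in the tumors (0.42, 0.18 to 0.67, adjusted p = 0.0132). The C57BL/6 glands scored 1.12, 1.10 and 1.18 for Esrp1, below each Py230 tumor. The other 8 members ranged from -0.28 to 0.27, lowest for Cldn4 (adjusted p = 0.109), whose Py230 libraries all lay below the glands. At 6 w p.i., when 28.8% were called higher, Esrp1 (0.43, 0.19 to 0.68, adjusted p = 0.00369) and Cldn7 (0.37, 0.13 to 0.62, adjusted p = 0.0107) were higher. The other 7 members ranged from -0.048 to 0.28 at 6 w p.i. The Esrp1 call of 3 w p.i. was lost without Py230 replicate 1 (0.31, adjusted p = 0.177), and the Cldn7 call without Py230 replicate 3 or gland replicate 2 (adjusted p = 0.0553 and 0.0577). Cldn3 was called at 3 w p.i. without Py230 replicate 3 (0.37, adjusted p = 0.0180). Fitted on the 6 libraries of a week alone, Esrp1 of 3 w p.i. was not called (adjusted p = 0.121), while at 6 w p.i. Cdh1 and Ovol1 were called as well (adjusted p = 0.0156 and 0.0193). In week 6 Cldn3 was called without Py230 replicate 2 or gland replicate 1 (adjusted p = 0.0370 and 0.0244), and Grhl2 was called without that gland library too (adjusted p = 0.049957).

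**Figure D3:**
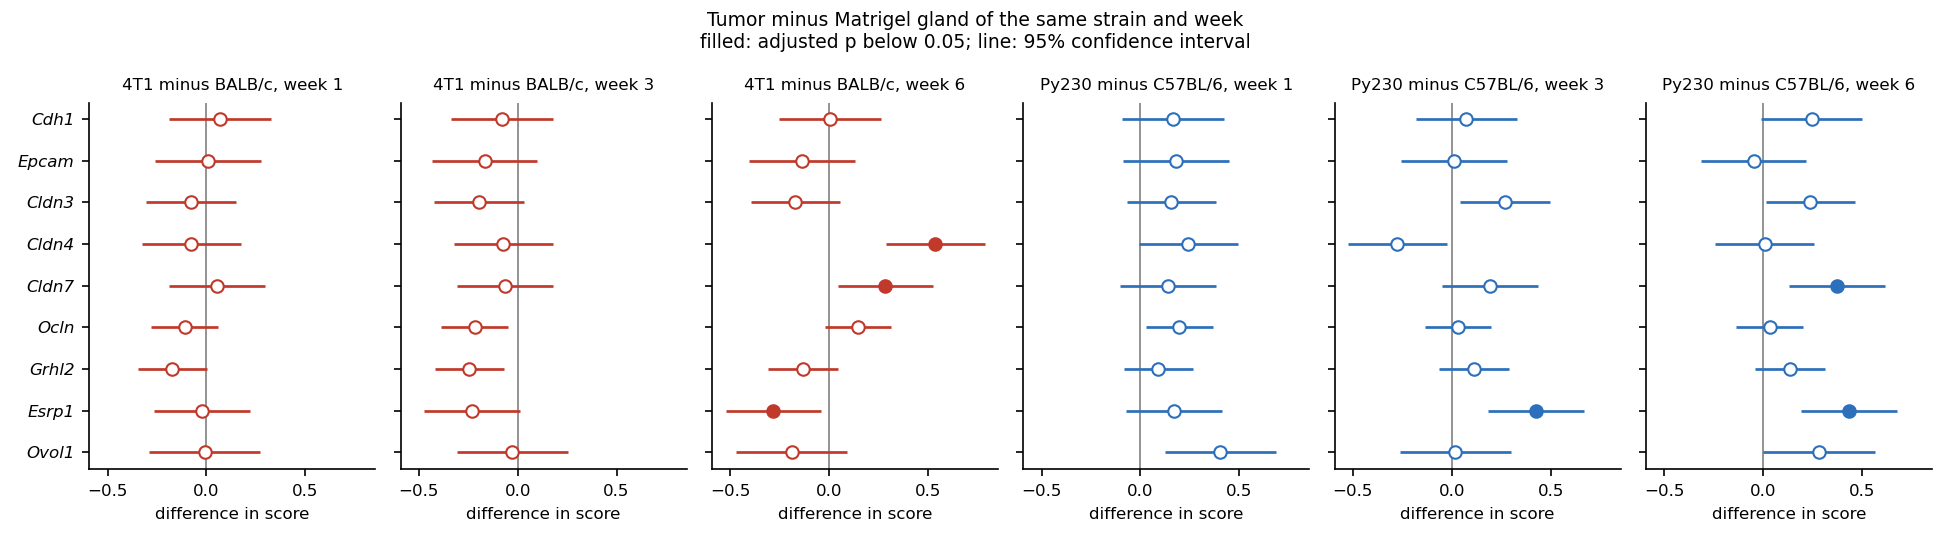
Difference in score between tumors and the Matrigel glands of the same strain and week (horizontal axes) for each member, 4T1 in red and Py230 in blue, with 95% confidence intervals as lines and filled circles for adjusted p below 0.05. Filled circles appear for Cldn4, Cldn7 and Esrp1 in 4T1 at 6 w p.i., for Esrp1 in Py230 at 3 w p.i. and for Esrp1 and Cldn7 in Py230 at 6 w p.i.

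Between the Matrigel glands of the 2 strains, limma called no member at 1, 3 or 6 w p.i., when 3.06%, 3.77% and 3.84% of all genes were called. At an unadjusted p under 0.05 there were 1, 5 and 0 members. In week 3 all 9 members scored lower in BALB/c (-0.41 to -0.018), and Cldn4 came closest to the threshold (-0.41, adjusted p = 0.0595). C57BL/6 glands of 3 w p.i. scored 1.25, 1.19 and 1.13 for Cldn4 and BALB/c glands 0.708, 0.840 and 0.803, with no overlap. The libraries of Cdh1, Cldn3, Cldn7, Ocln and Ovol1 did not overlap between these glands either, whereas those of Epcam, Grhl2 and Esrp1 did. The share of all genes without overlap is not given for this comparison. Fitted on the glands of 3 w p.i. alone, limma called 2 members, and the share of all genes called in that fit is not given either.

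The gland difference was therefore taken off the tumor difference, since the study used these glands as controls. No member was then called at 1 w p.i. by limma, when 0.305% of all genes were called and 3 members had an unadjusted p under 0.05. Without 4T1 replicate 2 Ocln was called (-0.38, adjusted p = 0.0427). At 3 w p.i., when 9.15% of all genes were called, Esrp1 was lower in 4T1 beyond the gland difference (-0.65, -1.0 to -0.31, adjusted p = 0.0160). Without Py230 replicate 1 it was -0.54 (adjusted p = 0.0784), and fitted on the 12 libraries of that week alone it was not called (adjusted p = 0.0736). Cldn3 (-0.47, adjusted p = 0.0573) and Grhl2 (-0.36, adjusted p = 0.0599) did not pass the test, but both were called without Py230 replicate 3 (adjusted p = 0.0138 and 0.0296) and Cldn3 also without 4T1 replicate 3 (adjusted p = 0.0487). At 6 w p.i., when 25.5% of all genes were called, Esrp1 was lower (-0.71, -1.06 to -0.37, adjusted p = 0.00208) and Cldn4 higher (0.53, 0.18 to 0.88, adjusted p = 0.0237). The Esrp1 call of 6 w p.i. held without any 1 of the 12 libraries. The Cldn4 call was lost without 4T1 replicate 1 or 3, gland replicate 1 of either strain or Py230 replicate 1 (adjusted p 0.0507 to 0.0934). It was also lost when only the 12 libraries of that week were fitted (adjusted p = 0.0982). Cldn3 (-0.41, adjusted p = 0.0528) did not pass the test, but was called without 4T1 replicate 1 or 3, gland replicate 1 of either strain or Py230 replicate 2 (adjusted p 0.0222 to 0.0390). Grhl2 was called without C57BL/6 gland replicate 1 (adjusted p = 0.0366) and Ovol1 without BALB/c gland replicate 1 (adjusted p = 0.0113).

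Over time within the 4T1 tumors, limma called no member between 1 and 3 w p.i., when 0.628% of all genes were called and 3 members had an unadjusted p under 0.05, although 8 of the 9 differences were negative. Between 3 and 6 w p.i., when 34.2% of all genes were called higher, Cldn4 rose by 0.76 (0.51 to 1.01, adjusted p = 1.07e-05), Ocln by 0.46 (0.29 to 0.62, adjusted p = 4.78e-05) and Cldn7 by 0.37 (0.13 to 0.61, adjusted p = 0.0103). Every Cldn4 and Ocln library of 6 w p.i. lay above every library of 3 w p.i. The other 6 members had differences from 0.0069 for Esrp1 to 0.20 for Cdh1. Without 4T1 replicate 2 of 6 w p.i., Cdh1 (0.40, adjusted p = 0.00422), Epcam (0.35, adjusted p = 0.00462) and Grhl2 (0.25, adjusted p = 0.0218) were called as well. The Cldn7 call was lost without replicate 2 of 3 w p.i. or replicate 3 of 6 w p.i. (adjusted p = 0.0730 and 0.0765), and with only these 6 libraries fitted (adjusted p = 0.0785). Of the 4 luminal keratins, Krt8 (0.38, adjusted p = 0.000303) and Krt18 (0.32, adjusted p = 0.00276) rose over the same interval. The mean of all 4 was 1.36 to 1.41 at 3 w p.i. and 1.28 to 1.74 at 6 w p.i., with overlap. Krt7 and Krt19 are not given singly here.

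Within the Py230 tumors the changes called lay in the earlier interval. Between 1 and 3 w p.i., when 12.8% of all genes were called higher, Esrp1 rose by 0.42 (0.17 to 0.66, adjusted p = 0.0150) and Cldn3 by 0.35 (0.12 to 0.58, adjusted p = 0.0261). Both calls were lost without replicate 1 of 3 w p.i. (adjusted p = 0.178 and 0.233) and without replicate 3 of 1 w p.i. (adjusted p = 0.0603 and 0.101). That of Cldn3 was also lost without replicate 2 of 1 or of 3 w p.i. (adjusted p = 0.0768 and 0.0706), and Cldn7 was called without replicate 3 of 3 w p.i. (0.40, adjusted p = 0.0174). Fitted on these 6 libraries alone, neither Esrp1 nor Cldn3 was called (adjusted p = 0.148 and 0.154). Between 3 and 6 w p.i., when 6.03% of all genes were called, limma called no member and 1 had an unadjusted p under 0.05.

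A change with time of the gap between the models was called for 3 of 9 members in each interval. From 3 to 6 and from 1 to 6 w p.i. that is near the share of all genes. Values and lost calls are given in the closing sections. From 1 to 3 w p.i. (15.3% of all genes called) the gap moved down for Cldn3, Cldn7 and Esrp1. From 3 to 6 w p.i. (26.7%) it moved up for Cldn4, Cldn7 and Ocln. From 1 to 6 w p.i. (27.4%) it moved up for Cldn4 and Ocln and down for Esrp1 (from -0.029 through -0.76 to -0.67).

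In the glands limma called no member between weeks. C57BL/6 glands had higher scores at 3 than at 1 w p.i. for all 9 members (0.11 to 0.45), 5 of them at an unadjusted p under 0.05, while 0.129% of all genes were called. For 8 of the 9 the libraries did not overlap, against 10.8% of all genes in that direction. The luminal keratin mean of these glands was 1.32 to 1.61 at 1 w p.i. and 1.75 to 1.84 at 3 w p.i. At an unadjusted p under 0.05 there were 1 member between 3 and 6 w p.i. in C57BL/6 glands (0.217% of all genes called) and none in either interval in BALB/c glands (0.0139% and 0%).

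Setting each member against the mean of Krt8 and Krt18 in the same library showed which members moved apart from that pair. At 6 w p.i. the mean of all 4 luminal keratins was 1.28 to 1.74 in 4T1 and 1.83 to 1.92 in Py230 tumors. The keratins of this scale are only Krt8 and Krt18. Centering on Krt7 and Krt19 was not tried, so results on this scale hold for the pair chosen. In week 3 Krt8 itself was lower in 4T1 than in Py230 tumors (-0.25, adjusted p = 0.0212), whereas Krt18 was not called (-0.11, adjusted p = 0.335). Relative to the keratins, Esrp1 was -0.662 ± 0.0198 in 4T1 and -0.666 ± 0.108 in Py230 tumors at 1 w p.i. (SD, n = 3). In week 6 it was -1.10 ± 0.191 in 4T1 and -0.440 ± 0.0307 in Py230 tumors, and the libraries of the 2 models did not overlap. Cldn4 took the opposite course, from -1.13 ± 0.0112 to -0.437 ± 0.231 in 4T1 and from -0.818 ± 0.0670 to -0.742 ± 0.0333 in Py230 tumors. A rise of Cldn4 against the keratins was not particular to tumors. It went from -1.06 ± 0.0572 to -0.805 ± 0.115 in BALB/c and from -0.866 ± 0.0477 to -0.542 ± 0.0294 in C57BL/6 glands. Cldn7 was -0.957 ± 0.0475 at 1 w p.i. and -0.999 ± 0.109 at 6 w p.i. in 4T1 tumors. With all libraries centered on these keratins, the limma differences between 4T1 and Py230 tumors were -0.58 (adjusted p = 4.59e-05) for Esrp1 at 3 w p.i. and -0.66 (adjusted p = 9.31e-07) at 6 w p.i. On that scale Cldn4 was called higher in 4T1 at 6 w p.i. (0.31, adjusted p = 0.0142), and Grhl2 at 3 w p.i. was not called (adjusted p = 0.0600). Within 4T1 tumors, the changes of Cldn7 and Ocln from 3 to 6 w p.i. were not called (0.018 and 0.11, adjusted p = 0.848 and 0.243). In Py230 tumors Cldn7 went from -0.688 ± 0.200 to -0.976 ± 0.0776 over that interval. Ocln went from -1.21 ± 0.0935 to -1.51 ± 0.0473 there.

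**Figure D4:**
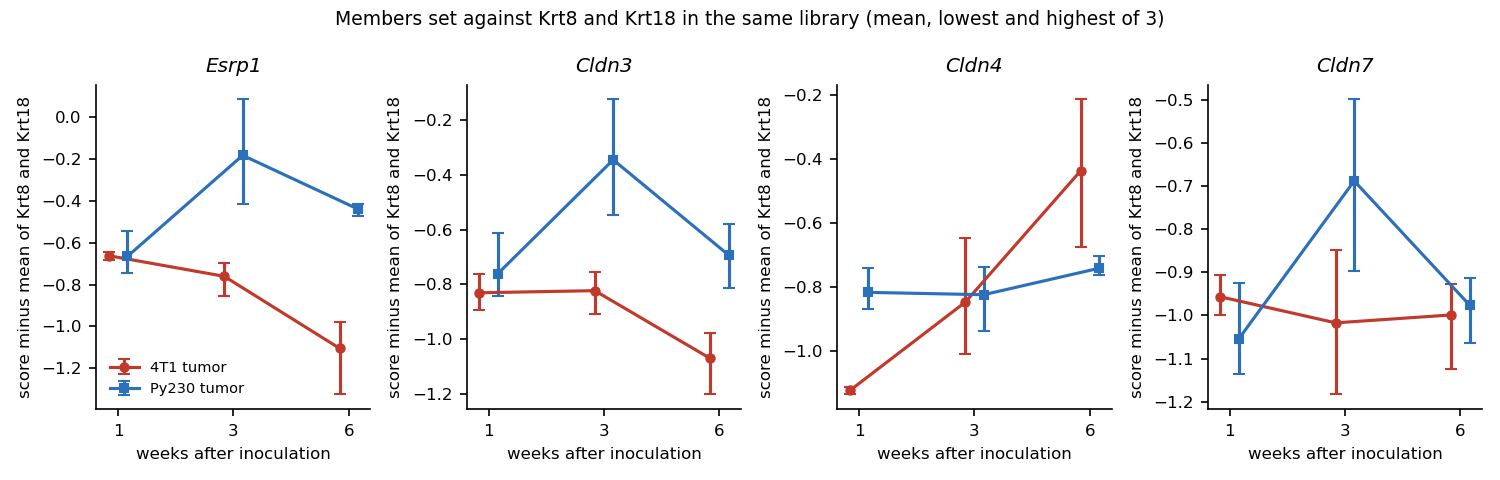
Score of Esrp1, Cldn3, Cldn4 and Cldn7 minus the mean score of Krt8 and Krt18 in the same library (vertical axes) by weeks after inoculation in 4T1 (red) and Py230 (blue) tumors, with the mean as a point and the lowest and highest of 3 libraries as bars. The 4T1 mean of Esrp1 goes down to -1.10 while that of Cldn4 goes from -1.13 to -0.437.

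Other genes of the same structures were described from lists of tight junction (12 genes), adherens junction (9), desmosome (9), apical polarity (7 measured) and epithelial regulator genes (15), none of them members. In week 3 no gene of these 5 lists was called higher in 4T1. The genes called lower numbered 10 of 12, 4 of 9, 4 of 9, 5 of 7 and 12 of 15, against 18.5% of all genes. The median differences were -0.40, -0.058, -0.26, -0.25 and -0.42, against -0.011 over all genes. The smallest p-values belonged to the tight junction genes Marveld2 (tricellulin, -0.53, adjusted p = 4.91e-05) and Cldn1 (-0.94, adjusted p = 0.000159), and to Ctnna1 (alpha-catenin, -0.19, adjusted p = 0.000254) and Nectin4 (-0.35, adjusted p = 0.00428) of the adherens junction. In the desmosome list they were those of the cadherins Dsc2 (-1.09, adjusted p = 6.76e-06) and Dsg2 (-0.55, adjusted p = 4.36e-05), and among polarity genes those of Llgl2 (-0.65, adjusted p = 5.14e-08) and Patj (-0.57, adjusted p = 8.85e-06). Among regulators they were those of the ETS factors Spdef (-1.24, adjusted p = 2.30e-08) and Ehf (-0.98, adjusted p = 3.93e-07).

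By week 6 the same lists were mixed. Called higher and lower in 4T1 were 2 and 5 of 12 tight junction, 1 and 5 of 9 adherens junction, 1 and 5 of 9 desmosome, 2 and 4 of 7 polarity and 1 and 8 of 15 regulator genes, against 24.1% and 16.7% of all genes. Elf5 (-1.95, adjusted p = 3.03e-16), an ETS factor of alveolar luminal cells, and Ehf (-2.24, adjusted p = 2.54e-14), also an ETS factor, had larger differences than any member. Cldn8 (-1.29, adjusted p = 4.75e-11) and Tjp3 (ZO-3, -0.75, adjusted p = 9.21e-08) were lower, as were Nectin1 (-0.48, adjusted p = 1.75e-06) and Nectin4 (-0.64, adjusted p = 2.19e-06). Llgl2 (-0.50, adjusted p = 5.96e-07) and Dsc2 (-0.59, adjusted p = 0.00266) were lower, whereas Pard3 (0.29, adjusted p = 0.000133) and the plakin Ppl (0.44, adjusted p = 0.000464) were higher. At 1 w p.i. no gene of these lists was called higher. Those called lower were 3 of 12 tight junction (Cldn12, -0.19, adjusted p = 0.0108 and Tjp1, -0.23, adjusted p = 0.0173 among them), 0 of 9 adherens junction, 1 of 9 desmosome (Evpl, -0.32, adjusted p = 0.0352), 2 of 7 polarity (Pard3, -0.25, adjusted p = 0.00297 and Prkci, -0.18, adjusted p = 0.0193) and 0 of 15 regulator genes, against 8.43% of all genes.

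The 8 EMT factors and mesenchymal markers were set beside the members. At 1 w p.i. 4 of 8 were called lower in 4T1, led by Snai1 (-0.28, adjusted p = 0.00483) and Zeb1 (-0.27, adjusted p = 0.0253), both repressors of Cdh1, against 8.43% of all genes. In week 3 4 of 8 were called higher, led by Zeb2 (0.44, adjusted p = 0.000439) and fibronectin (Fn1, 0.79, adjusted p = 0.00109). In week 6 4 were called higher and 2 lower, the latter being Cdh2 (N-cadherin, -1.05, adjusted p = 5.69e-11) and Snai2 (-0.97, adjusted p = 2.71e-08). Of all genes, 11.9% and 24.1% were called higher in weeks 3 and 6 and 16.7% lower in week 6. Fibroblasts also express several of these genes, and the mean score of the 6 fibroblast markers was 1.84 to 2.27 in 4T1 and 2.34 to 2.41 in Py230 tumors at 1 w p.i. At 3 w p.i. it was 2.05 to 2.31 in 4T1 and 1.53 to 2.07 in Py230 tumors. The 7 myoepithelial markers had a mean of -0.271 to 0.392 in 4T1 and 1.0 to 1.27 in Py230 tumors at 6 w p.i. Their part in the member results was not tested.

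**Figure D5:**
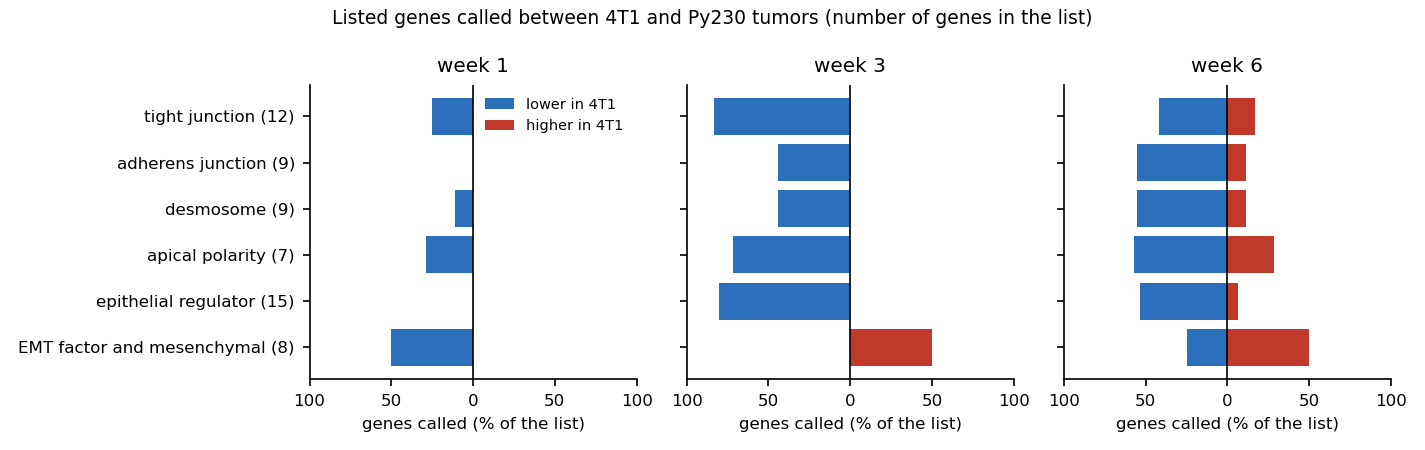
Share of each gene list called lower (blue, drawn to the left) or higher (red, drawn to the right) in 4T1 than in Py230 tumors in weeks 1, 3 and 6, as percent of the genes in the list, whose number is given in parentheses. In week 3 the 5 epithelial lists have bars to the left only and the EMT list to the right only, and at 6 w p.i. bars stand on both sides for every list.

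The genes whose 12 group means followed the mean profile of the 9 members most closely were sought among 13559 genes averaging 100 normalized counts or more. The highest Pearson correlations over the 12 group means were those of Camsap3 (0.950), a protein that binds microtubule minus ends, Map2 (0.946), Marveld2 (0.944) and Patj (0.943). Urah (0.934), Nipal2 (0.926), Eya2 (0.923), Dsg2 (0.923), Pard6b (0.918) and Mpzl3 (0.918) followed. Of these 10 genes, 4 belong to the junction and polarity lists. The 12 means come from the same libraries as every comparison above. Each member was also compared with the mean profile of the other 8. Cldn3 (0.900) and Cdh1 (0.898) followed it most closely, whereas Cldn4 did so least (0.350).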

How the data were processed

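RNA from whole tumors and glands was sequenced as stranded paired-end libraries. The authors mapped reads to mm10 with STAR, counted them with GenomicAlignments and normalized them with DESeq2 (versions not given in the sources used here). The deposited expression table holds scores, each library standardized to mean 0 and SD 1 over 21650 genes, and not counts, so no count test was run. A second table gave the authors' mean normalized count per gene, a deposited value pooled over libraries. Its fold changes and p-values are the authors' own comparisons and were not used. All columns of the expression table were mapped to samples.

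Scores were fitted with limma 3.58.1 in R 4.3.3, with 1 mean for each of 12 groups, contrasts between them, and trended, robust variance moderation. P-values were two-sided and adjusted by Benjamini-Hochberg over 21650 genes, and a gene was called at an adjusted p under 0.05. Comparisons share libraries and are not independent. The study calls the 3 tumors of a group independent samples, and the sources used here do not say whether the 3 glands were separate animals, so p-values measure the spread between these samples. An exact permutation test of 3 against 3 cannot give a p below 0.1. On simulated data for 4T1 minus Py230 tumors at 3 w p.i. (21650 genes), 90% of changes of 0.5 score and 94% of changes of 1 score were recovered. There were 6 false calls among unchanged genes. The simulated noise was normal, independent between genes and equally wide in all 12 groups, as the model assumes. These rates therefore check the code and do not give the power in the real data. Alternatives were a stricter threshold, a mean count of at least 10, other scalings, centering on Krt8 and Krt18, only the groups compared, plain limma, a replicate block and leaving out each library.

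Text names all 9 members, up to 2 genes of each wider list and comparison with the smallest p, and the 10 genes of nearest profile. Members and lists were chosen with earlier results of these data known. RefSeq promoter windows (GRCm38.p6) were matched by symbol.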

Additional observations from a re-analysis of the deposited data

Results flagged for a closer look

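Interaction terms were tested with limma for differences of effects between models, weeks and tissues, and 12 member results passed the adjusted threshold. No formal outlier test was run on groups of 3 libraries, and calls that end without a single library are given here or with the same value above.

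Esrp1 was lower in 4T1 than in Py230 tumors beyond the gland difference at 3 w p.i. (-0.65, adjusted p = 0.0160) and at 6 w p.i. (-0.71, adjusted p = 0.00208). Cldn4 was higher beyond the gland difference at 6 w p.i. (0.53, adjusted p = 0.0237).

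Between 1 and 3 w p.i., when 15.3% of all genes were called, the tumor difference moved down for Cldn3 (-0.56, adjusted p = 0.0174), Cldn7 (-0.58, adjusted p = 0.0210) and Esrp1 (-0.73, adjusted p = 0.00575). The Cldn3 and Cldn7 calls were lost without 4T1 replicate 2 of 3 w p.i. (adjusted p = 0.0524 and 0.0727) or Py230 replicate 1 of 3 w p.i. (adjusted p = 0.0849 and 0.0929), and that of Cldn7 without 4T1 replicate 1 of 1 w p.i. (adjusted p = 0.0582). With only the tumors of both weeks fitted, none of the 3 was called (adjusted p = 0.104, 0.108 and 0.0763). Cdh1 was called without 4T1 replicate 1 or Py230 replicate 3 of 3 w p.i. (adjusted p = 0.0282 and 0.0311). Grhl2 was called without Py230 replicate 1 of 1 w p.i. or Py230 replicate 3 of 3 w p.i. (adjusted p = 0.0398 and 0.0493).

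Between 3 and 6 w p.i., when 26.7% of all genes were called, it moved up for Cldn4 (0.51, adjusted p = 0.0307), Cldn7 (0.48, adjusted p = 0.0326) and Ocln (0.58, adjusted p = 0.000543). The Cldn4 call was lost without any 1 of 7 libraries (adjusted p 0.0553 to 0.109), namely replicates 2 and 3 of either tumor at 3 w p.i., 4T1 replicates 1 and 3 and Py230 replicate 1 at 6 w p.i. The Cldn7 call was lost without any 1 of 7 libraries (adjusted p 0.0517 to 0.0990), namely 4T1 replicate 2 and Py230 replicates 1 and 2 at 3 w p.i., 4T1 replicates 1 and 3 and Py230 replicates 1 and 2 at 6 w p.i. The Ocln call held without any 1 library. Without 4T1 replicate 2 of 6 w p.i., Epcam (0.49, adjusted p = 0.00726) and Cldn3 (0.42, adjusted p = 0.0409) were called as well. With only the tumors of both weeks fitted, Cldn4 and Cldn7 were not called (adjusted p = 0.129 and 0.109) and Ocln was (adjusted p = 0.00335).

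Between 1 and 6 w p.i., when 27.4% of all genes were called, it moved up for Cldn4 (0.64, adjusted p = 0.00656) and Ocln (0.35, adjusted p = 0.0249) and down for Esrp1 (-0.64, adjusted p = 0.00513). The Cldn4 and Esrp1 calls held without any 1 library. That of Ocln was lost without 4T1 replicate 3 or Py230 replicate 1 of 1 w p.i., or without replicate 1 or 2 of either tumor at 6 w p.i. (adjusted p 0.0536 to 0.0845).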

How the results depend on the processing

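Leaving out 1 library at a time, the members called between 4T1 and Py230 tumors numbered 0 to 2, 5 to 6 and 1 to 5 in weeks 1, 3 and 6, and 0 to 1, 0 to 3 and 1 to 3 less the gland difference. They numbered 1 to 3 for 4T1 against glands at 6 w p.i., 0 to 2 and 1 to 4 for Py230 against glands at 3 and 6 w p.i., 2 to 6 for 4T1 from 3 to 6 w p.i. and 0 to 3 for Py230 from 1 to 3 w p.i. For the change of the tumor difference they numbered 1 to 5 (1 to 3), 1 to 5 (3 to 6) and 2 to 3 (1 to 6 w p.i.).

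At an adjusted p of 0.01 the counts were 0 and 2 between tumors at 1 and 6 w p.i., 0 and 1 less the gland difference at 3 and 6 w p.i., 1, 0 and 1 against glands, 0 for Py230 from 1 to 3 w p.i., and 1 and 1 for the change from 1 to 3 and 3 to 6 w p.i. Fitting only the groups compared gave, in the same order, 1, 2, 0, 1, 0, 0, 4, 0, 0 and 1, and 2 between glands at 3 w p.i. Centering on Krt8 and Krt18 gave 1 between tumors at 1 w p.i., 3 less the gland difference at 3 w p.i., 5, 4 and 1 against glands, 1 and 5 within 4T1 and 4 within Py230 from 3 to 6 w p.i. On that scale Cldn3 (-0.25), Epcam (-0.26), Esrp1 (-0.34) and Grhl2 (-0.18) turned lower within 4T1 from 3 to 6 w p.i. The cause was not tested. limma without its trend and robust options and quantile normalization each gave 1 between tumors at 1 w p.i., and rescaling by median and MAD gave 1 between glands at 3 w p.i. Over all genes, calls between tumors in weeks 1, 3 and 6 numbered 4196, 6569 and 8837, against 833, 5287 and 3628 with centering and 1487, 434 and 9910 with only the groups compared. For the other alternatives and comparisons of this section the share of all genes called is not given. Those member counts therefore cannot be set against the share of all genes.

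With the replicate number as a block (3 members less the gland difference at 3 w p.i.), 7 member differences became called and none was lost. Of 90 same-number pairs 35 correlated above 0.1, and the correlations ran from -0.54 to 0.79. In 4 of 18 tumors the best correlation was with their own number in the other model. With 3 libraries per group these values cannot decide whether a number stands for a batch, which was not tested. Depth is unknown, and Ovol1 has the lowest mean normalized count of the members.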
